A study of Mus musculus with 8 samples.

Results

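The expression of 10 genes for C-type lectins, scavenger receptors and related macrophage proteins was compared between J774A.1 cells, a mouse macrophage line, given LPS and the same cells given LPS with ursodeoxycholic acid (UDCA), a secondary bile acid. The genes were taken by symbol from the deposited table of 55487 genes, and each symbol matched 1 row. They were Clec4d, Clec4e, Clec4n, Clec7a, Clec5a, Mrc1, Marco, Lgals3, Cd5l and Stab1. RNA sequencing covered 4 libraries of cells treated for 24 h with LPS (1 μg/mL) and 4 libraries of cells treated for 24 h with LPS (1 μg/mL) and UDCA (1 mM). Both groups thus carried LPS, and no library of unstimulated cells was analysed here. All libraries came from 1 tumour-derived line, and the labels do not say whether the replicates were separate cultures, so the p-values measure the spread between these libraries. In such bulk samples, fewer cells with a transcript and less of it per cell cannot be told apart.

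C-type lectin receptors bind sugars and other patterns on fungi, bacteria and dying cells. Dectin-1 (Clec7a) signals through its own cytoplasmic tail, Mincle (Clec4e), MCL (Clec4d) and Dectin-2 (Clec4n) pair with the adaptor FcRγ (Fcer1g), and MDL-1 (Clec5a) pairs with DAP12 (Tyrobp), after which the kinase Syk and the CARD9, BCL10 and MALT1 complex carry the signal. The mannose receptor (Mrc1, CD206) and the scavenger receptors Marco and stabilin-1 (Stab1) take up ligands. Galectin-3 (Lgals3) and CD5L (Cd5l) are secreted proteins that bind sugars and lipids.

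The 250 bases upstream of the RefSeq start site on GRCm38.p6 are shown for the 3 receptor genes that were best expressed, for Lgals3, which changed in the other direction, and for Mrc1, which was near 0. The capitals mark GAGGAA or its reverse complement TTCCTC, the core letters bound by PU.1, the transcription factor that specifies macrophages.
Clec4d (chr6:123261857-123262106, plus strand): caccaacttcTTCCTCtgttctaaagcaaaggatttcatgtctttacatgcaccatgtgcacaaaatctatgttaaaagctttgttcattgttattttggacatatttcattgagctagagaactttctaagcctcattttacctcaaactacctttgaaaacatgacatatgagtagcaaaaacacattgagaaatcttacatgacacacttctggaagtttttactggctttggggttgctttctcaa
Clec4e (chr6:123289872-123290121, minus strand): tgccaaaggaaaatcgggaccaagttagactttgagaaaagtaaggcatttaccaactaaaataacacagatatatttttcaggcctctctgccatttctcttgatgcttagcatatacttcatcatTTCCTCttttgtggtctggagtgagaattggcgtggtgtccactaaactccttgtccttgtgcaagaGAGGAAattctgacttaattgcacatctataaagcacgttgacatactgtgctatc
Clec5a (chr6:40585806-40586055, minus strand): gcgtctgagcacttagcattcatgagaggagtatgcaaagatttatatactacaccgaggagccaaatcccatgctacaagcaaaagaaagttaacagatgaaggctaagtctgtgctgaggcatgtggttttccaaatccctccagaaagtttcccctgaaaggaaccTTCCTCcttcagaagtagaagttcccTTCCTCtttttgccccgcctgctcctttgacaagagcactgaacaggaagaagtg
Lgals3 (chr14:47373610-47373859, plus strand): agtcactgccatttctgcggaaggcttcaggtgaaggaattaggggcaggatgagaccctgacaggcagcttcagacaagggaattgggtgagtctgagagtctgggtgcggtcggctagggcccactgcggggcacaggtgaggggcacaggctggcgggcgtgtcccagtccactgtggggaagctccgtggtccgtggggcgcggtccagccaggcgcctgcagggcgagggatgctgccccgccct
Mrc1 (chr2:14229164-14229413, plus strand): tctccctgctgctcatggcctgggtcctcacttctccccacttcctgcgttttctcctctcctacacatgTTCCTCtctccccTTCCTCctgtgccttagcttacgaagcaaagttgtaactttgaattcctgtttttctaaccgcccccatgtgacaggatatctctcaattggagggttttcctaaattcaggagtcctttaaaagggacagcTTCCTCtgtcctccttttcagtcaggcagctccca
Of the 10 genes, all but Clec4n (9 genes) had an entry among the 32851 RefSeq promoters, and 8 of these 9 held GAGGAA on either strand within the 250 bases, against 23.3% of all promoters. The exception was Lgals3. Its RefSeq window lies inside the gene as GENCODE M21 places it, from 47367751 to 47386160, and no window at another start site was searched. In Clec4e the letters began 123 and 56 bases before the start site, in Clec5a 81 and 55 bases, and in Mrc1 180, 167 and 35 bases. The sequence was thus found both in genes that were well expressed and in Mrc1 and Marco, which were not. TGANTCA, the AP-1 letters, was found in 0 of the 9 windows (6.75% of all promoters). A 10-letter NF-κB pattern was found in Marco alone (4.11% of all promoters), and TTGCNNAA, a C/EBP pattern, in Clec4e alone (9.56% of all promoters). Both strands were searched for each, and none of these matches was tested as a binding site.

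The values are TPM, in which the reads of a gene are divided by its length and scaled to a common total, so that levels can be compared between genes. The libraries summed to between 958918 and 977485 TPM, the LPS + UDCA libraries being lower, and 0 of the 28 pairs of libraries were identical. TPM keeps no number of reads, so no depth is known, and errors are the SD between libraries. The mean had to reach 1 TPM for a gene to be tested, which held for 11796 genes, 6 of the 10 among them. The test was limma on log2(TPM + 1), and a call needed a change of 2-fold or more together with an FDR under 0.05.

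The 10 genes differed widely in level. In LPS libraries Lgals3 was highest (980 ± 18.5 TPM, SD, n = 4), followed by Clec4d (205 ± 11.3), Clec4e (56.7 ± 4.27), Clec5a (48.8 ± 6.21), Clec4n (9.15 ± 1.08) and Stab1 (4.43 ± 2.41). The ranges of Clec4e and Clec5a overlapped, and those of the other neighbours in this order did not. Cd5l and Clec7a were under 1 TPM on average, and Mrc1 and Marco were at or next to 0. With UDCA the order of Stab1 (7.31 ± 1.54 TPM) and Clec4n (2.75 ± 0.390 TPM) was exchanged, their ranges again being apart, whereas those of Clec5a and Clec4e overlapped. Lgals3 made up 75.1% ± 0.827 of their summed TPM in LPS libraries and 88.7% ± 0.798 with UDCA. The sum of the other 9 genes was 325 ± 8.41 TPM with LPS and 219.99 ± 6.76 TPM with UDCA, and Clec4d accounted for 63.1% ± 2.97 and 62.4% ± 0.819 of it (exact permutation test, p = 0.66).

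**Figure D1:**
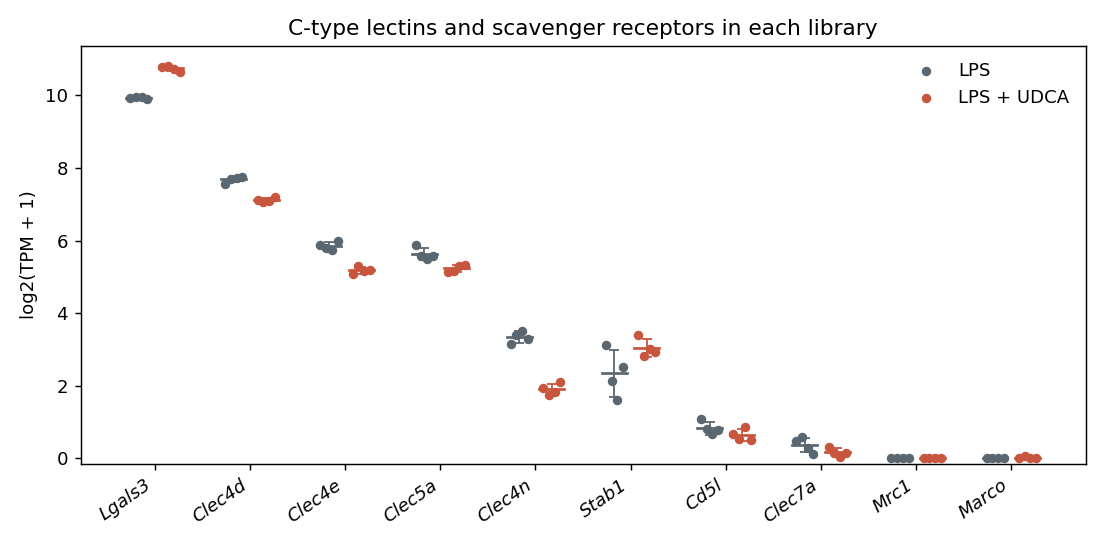
Each point is 1 library treated with LPS (grey) or LPS + UDCA (red), on log2(TPM + 1), for the 10 genes in order of their level with LPS, with lines at the mean and bars of 1 SD (n = 4). Lgals3 lay higher and Clec4d, Clec4e, Clec5a and Clec4n lay lower in every LPS + UDCA library, while Mrc1 and Marco lay at the floor in both groups.

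Of the 6 genes tested, 1 (Clec4n) was downregulated past both thresholds, where 8.44% of all genes tested were, and 0 were upregulated past both, where 8.71% were. At an unadjusted p under 0.05 from limma, which at least 72.5% of all genes tested passed, 2 of the 6 were higher and 4 lower. At an FDR under 0.05 without a fold change minimum, 4 were lower (32.3% of all genes tested) and 1 was higher (40.2%), so that 5 of 6 passed where 72.5% of all genes tested did. No overlap between LPS and LPS + UDCA libraries was seen in 5 of the 6, against 66.8% of all genes tested. Of these, 4 lay lower with UDCA (29.9% of all genes tested) and 1 lay higher (37.0%). The median log2 fold change was -0.48 over the 6 genes and 0.082 over all genes tested.

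Clec4n fell most. The gene encodes Dectin-2, a receptor for fungal mannans, and lies on chromosome 6 from 123229843 to 123247021 of GRCm38. It had 7.86, 9.52, 10.4 and 8.80 TPM in the LPS libraries and 2.85, 2.37, 2.52 and 3.25 TPM in the LPS + UDCA libraries. Every LPS + UDCA library was below every LPS library, and the means differed by 3.33-fold. The log2 fold change on log2(TPM + 1), a scale that understates changes of low genes, was -1.44 (standard error, SE, 0.11, adjusted p = 2.5e-06 from limma).

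The neighbouring genes Clec4d and Clec4e fell by less. Clec4d, from 123262111 to 123275265, encodes MCL, which raises the surface level of Mincle. It had 189, 207, 211 and 215 TPM with LPS and 137, 132, 135 and 145 TPM with UDCA. The groups did not overlap, and the mean was 1.497-fold lower with UDCA (log2 fold change -0.58, SE 0.048, adjusted p = 4.8e-06 from limma). Clec4e, from 123281789 to 123289870 on the opposite strand, encodes Mincle, a receptor for mycobacterial glycolipids and for a protein released by dead cells. Its values were 57.4, 54.2, 52.7 and 62.4 TPM with LPS and 32.5, 38.6, 34.7 and 35.1 TPM with UDCA, again without overlap. Its mean was 1.61-fold lower (log2 fold change -0.67, SE 0.068, adjusted p = 1.8e-05 from limma).

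The drop of Clec4n was larger than that of its neighbours. The ratio of Clec4d to Clec4n TPM was between 20.2 and 24.4 in the LPS libraries and between 44.5 and 55.6 with UDCA. On the log2(TPM + 1) scale, Clec4n changed by -0.86 relative to Clec4d and by -0.77 relative to Clec4e, each without overlap between groups (2-sided exact permutation test, p = 0.029 for each of these 2 comparisons, the smallest that 4 against 4 libraries allow). Comparisons between these genes were not among those planned. How often pairs of genes separate in this way was not computed, and 66.8% of single genes tested did not overlap. The ratio of Clec4d to Clec4e TPM was 3.64 ± 0.323 with LPS and 3.91 ± 0.361 with UDCA, and the groups overlapped (exact permutation test, p = 0.26).

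These genes belong to the Dectin-2 gene cluster, which runs on chromosome 6 from Clec4a1 (start 122921848) to Clec4e. Of its 9 genes, 6 were tested, with 3 falling and 1 rising past both thresholds, where 17.1% of all genes tested were called in either direction. Clec4a1 fell from between 7.30 and 8.19 TPM to between 2.67 and 3.12 TPM (log2 fold change -1.19, adjusted p = 1.0e-06 from limma). Clec4a3 fell from between 4.61 and 7.63 TPM to between 1.46 and 3.07 TPM (log2 fold change -1.12, adjusted p = 4.8e-04 from limma). Clec4a2, which encodes the inhibitory receptor DCIR and lies between them and Clec4n, went the other way. It had 2.52, 2.72, 2.0 and 3.12 TPM with LPS and 7.35, 7.63, 11.9 and 8.28 TPM with UDCA (log2 fold change 1.43, SE 0.15, adjusted p = 2.8e-05 from limma). The ratio of Clec4a1 to Clec4a2 TPM went from between 2.42 and 4.10 in LPS libraries to between 0.262 and 0.368 with UDCA. Clec4a4 and Clec4b2 were listed at 0 in all 8 libraries, and Clec4b1 was at most 0.15 TPM. Of the words of 31 bases in Clec4a2 transcripts, 10.9% also occur in another gene, most often in Clec4a4, so reads could be split between them. This share was 0% for Clec4d and Clec4a1, 0.0992% for Clec4e, 1.96% for Clec4n and 2.19% for Clec4a3.

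**Figure D2:**
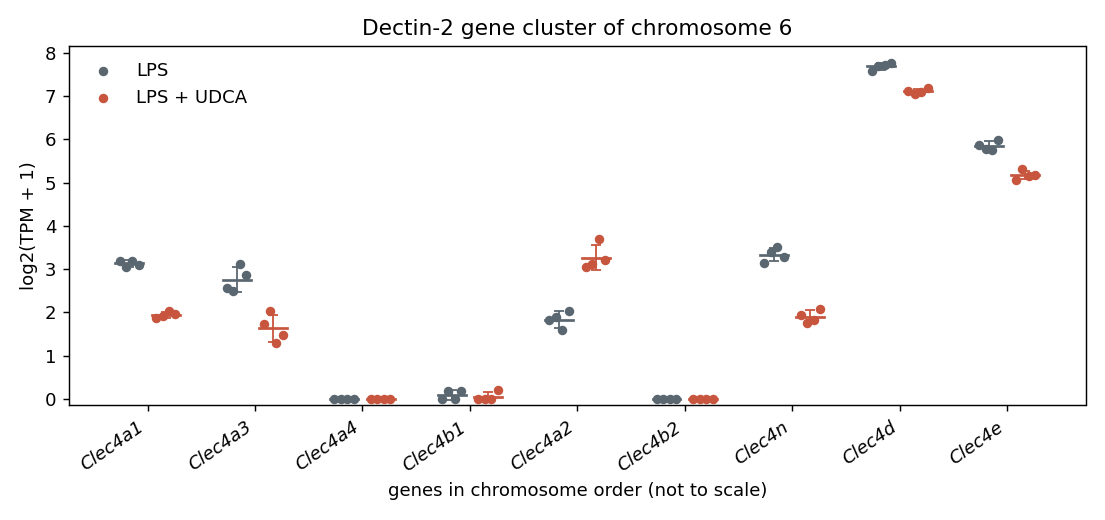
The 9 genes of the Dectin-2 cluster are placed in chromosome order, with log2(TPM + 1) of each library for LPS (grey) and LPS + UDCA (red), lines at the mean and bars of 1 SD (n = 4). Clec4a2 is the 1 gene that lay higher with UDCA, between genes that lay lower or at the floor.

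Clec5a, on chromosome 6 from 40574894 to 40585821, lies outside that cluster and encodes MDL-1, a DAP12-coupled receptor of myeloid cells. It had 57.9, 46.7, 43.95 and 46.5 TPM with LPS and 34.4, 34.8, 38.5 and 39.5 TPM with UDCA. The groups did not overlap, with LPS replicate 1 the highest, and the mean was 1.33-fold lower (log2 fold change -0.39, SE 0.088, adjusted p = 0.0028 from limma).

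Clec7a, which encodes Dectin-1, the receptor for fungal β-glucan, was barely detected. It had 0.38, 0.49, 0.21 and 0.09 TPM with LPS and 0.24, 0.10, 0.03 and 0.11 TPM with UDCA, and the groups overlapped (exact permutation test, p = 0.20). In the GENCODE M21 annotation of GRCm38 it is classed as a polymorphic pseudogene. Of the 9 genes of the Dectin-1 cluster around it, 2 passed the filter. Past both thresholds 0 were called in either direction, where 17.1% of all genes tested were. At an unadjusted p under 0.05 from limma, which at least 72.5% of all genes tested passed, 2 were higher. Clec12a, which encodes an inhibitory receptor for uric acid crystals, was 16.0 ± 0.880 TPM with LPS and 29.2 ± 1.52 TPM with UDCA (log2 fold change 0.82, adjusted p = 1.8e-06 from limma). Gabarapl1, an autophagy gene at the edge of the cluster, was 57.5 ± 3.04 and 107 ± 16.9 TPM (log2 fold change 0.86), and an antisense gene, 1700101I11Rik, overlaps its exons. Clec2d was at most 1.31 TPM, and its groups overlapped. Clec12b, Clec1a, Clec1b, Clec9a and Olr1 were each at most 0.35 TPM.

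Lgals3 was the most abundant of the 10 genes and the 1 gene that rose at an FDR under 0.05. Galectin-3 is a β-galactoside-binding protein that macrophages make in large amounts and that gathers on damaged lysosomes. The gene, on chromosome 14 from 47367751 to 47386160, had 979, 989, 997 and 954 TPM with LPS and 1759, 1811, 1703 and 1617 TPM with UDCA. The lowest LPS + UDCA library was far above the highest LPS library. The mean rose by 1.76-fold, short of the minimum of 2 (log2 fold change 0.81, 95% interval 0.73 to 0.90, adjusted p = 1.2e-07 from limma).

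Other genes whose symbols begin with Lgals differed in direction. They were listed by symbol, so not all encode galectins. Lgals3bp, the gene of a galectin-3 ligand, and the pseudogenes Lgals1-ps1 and Lgals1-ps2 were among them. Of 11 listed, 5 were tested, with 2 downregulated (8.44% of all genes tested) and 0 upregulated (8.71%) past both thresholds. At an unadjusted p under 0.05 from limma, which at least 72.5% of all genes tested passed, 1 was higher and 3 were lower. Lgals3bp was among the lower (log2 fold change -0.61). Lgals1, which encodes galectin-1, was nearly as abundant as Lgals3 with LPS, at 920.2 ± 12.1 TPM, and was 329 ± 14.9 TPM with UDCA (log2 fold change -1.48, SE 0.035, adjusted p = 2.6e-09 from limma). Lgals9 fell from 47.45 ± 1.30 to 16.7 ± 2.56 TPM (log2 fold change -1.46, adjusted p = 7.9e-07 from limma). Lgals8, whose protein marks ruptured vesicles, rose from 40.9 ± 2.11 to 55.96 ± 2.68 TPM at an FDR under 0.05 but under 2-fold. The gene Heatr1 overlaps its exons on the opposite strand. Lgals2, too low to be tested, was between 0 and 0.33 TPM with LPS and between 0.37 and 1.77 TPM with UDCA, without overlap. The ratio of Lgals3 to Lgals1 TPM was between 1.04 and 1.08 in the LPS libraries and between 4.90 and 5.57 with UDCA.

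**Figure D3:**
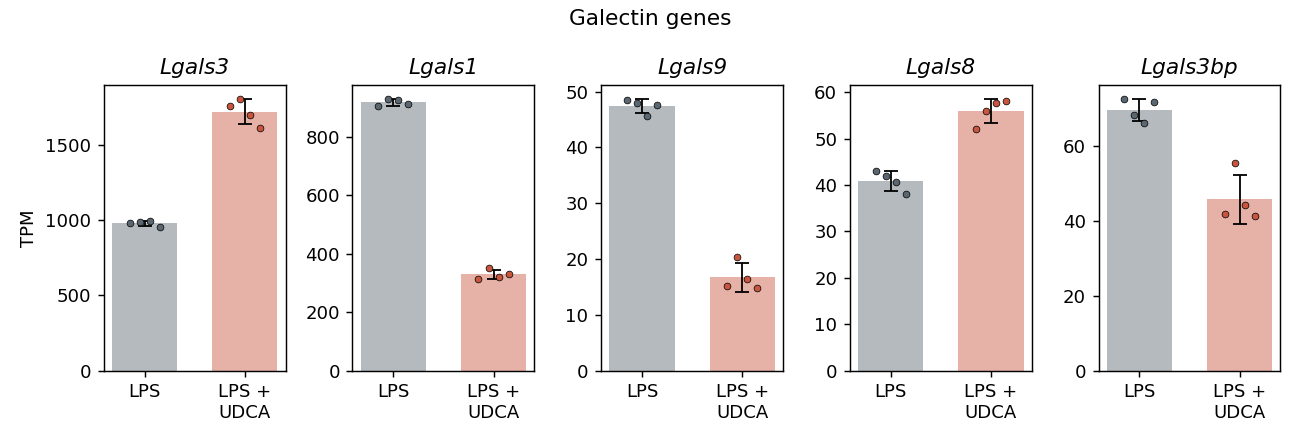
Bars give the mean TPM of Lgals3, Lgals1, Lgals9, Lgals8 and Lgals3bp, the gene of a galectin-3 ligand, with bars of 1 SD and a point per library (n = 4), each panel on its own axis from 0. Lgals3 and Lgals8 were higher with UDCA, and Lgals1, Lgals9 and Lgals3bp were lower.

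Mrc1 encodes CD206, the surface protein that, with F4/80, defined M2 macrophages in the flow cytometry of the study. The Mrc1 transcript was listed here at 0, 0.01, 0.01 and 0 TPM with LPS and at 0.01, 0.01, 0 and 0 TPM with UDCA. No difference between the groups was detectable at this level (exact permutation test, p = 1), and the gene was too low to enter the fit. None of the 31-base words of Mrc1 occurs in another gene, so its reads would not be shared. The genes of the other gate proteins, added after their values were seen, were at higher levels than Mrc1 in both groups. Adgre1, the gene of F4/80, rose from between 41.4 and 51.0 TPM to between 102 and 121 TPM (log2 fold change 1.27, adjusted p = 4.6e-07 from limma). Itgam, the gene of CD11b, which with CD11c defined M1 cells, fell from between 162 and 187 TPM to between 20.4 and 26.3 TPM (log2 fold change -2.91, adjusted p = 5.2e-09 from limma). Itgax, the gene of CD11c, was between 0.21 and 1.21 TPM in all libraries, and its groups overlapped. Transcript levels were measured here, not surface protein.

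Other genes listed for alternative (M2) activation showed no common direction. The list was not limited to the state induced by interleukin-4, and held Il10, Tgfb1 and Vegfa among others. Of 20 listed, 9 were tested, with 1 rising and 3 falling past both thresholds, where 17.1% of all genes tested were called in either direction. At an FDR under 0.05 alone, 2 were higher and 5 lower, where 40.2% and 32.3% of all genes tested were. Those that passed the FDR alone were Ccl22 (log2 fold change 0.49), Il4ra (-0.80) and Clec10a (-0.63). The median log2 fold change of the 9 was -0.63. Il10, which encodes an anti-inflammatory cytokine, fell from 76.7 ± 1.94 to 12.9 ± 1.51 TPM (log2 fold change -2.49, adjusted p = 1.4e-08 from limma). Tgfb1 fell from 195 ± 8.64 to 59.4 ± 9.16 TPM (log2 fold change -1.71), and Irf4 from 2.90 ± 0.296 to 0.535 ± 0.0480 TPM (log2 fold change -1.34). Vegfa, the gene of a vessel growth factor, rose from 29.1 ± 2.07 to 66.3 ± 4.88 TPM (log2 fold change 1.16). Retnla, Mgl2 and Cd163, 3 widely used M2 markers, were listed at 0 in all 8 libraries, and Chil3 was at most 0.05 TPM. Arg1, the gene of arginase 1, was listed at 0 with LPS and was between 0.12 and 1.15 TPM with UDCA. Tgm2, the gene of a transglutaminase, was between 0.04 and 0.24 TPM with LPS and between 1.29 and 1.39 TPM with UDCA. Arg1 and Tgm2 were under the filter. When limma was run without it, Tgm2 was also called higher, by 1.05 on the log2 scale (adjusted p = 8.5e-06). Of 23729 genes tested in that run, 1044 were called higher and 1010 lower. It called 5 genes of this list, against 4 with the filter. More of the listed genes were tested in it, so these counts do not share a denominator.

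**Figure D4:**
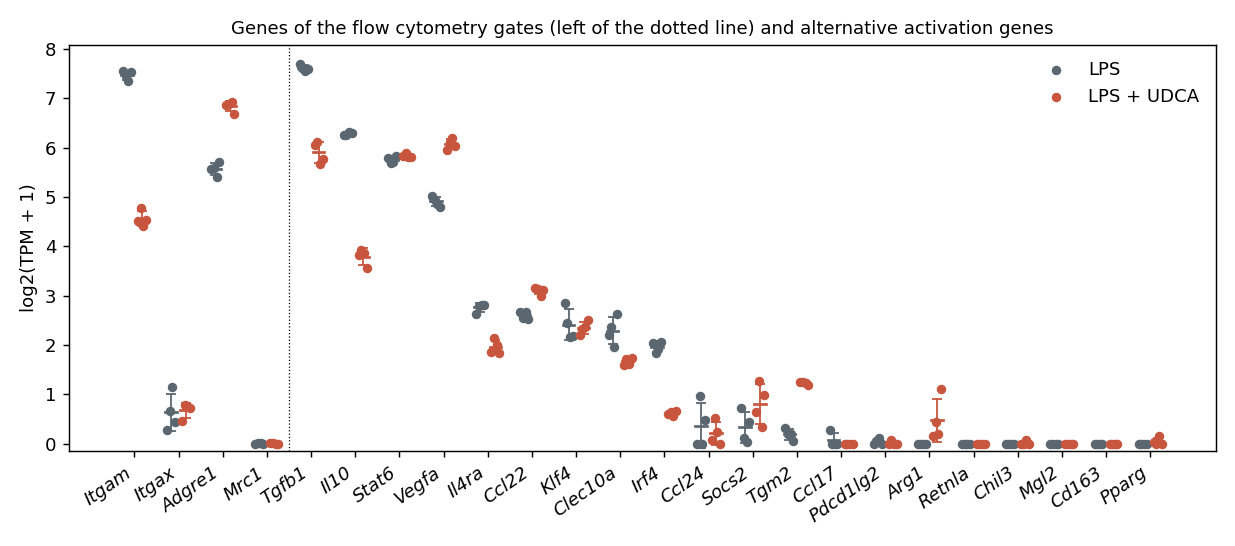
Each point is 1 library on log2(TPM + 1), for LPS (grey) and LPS + UDCA (red), with lines at the mean and bars of 1 SD (n = 4). Left of the dotted line are the genes of the 4 gate proteins, and right of it the 20 alternative activation genes. Itgam lay lower and Adgre1 higher with UDCA, Mrc1 lay at the floor, and Il10, Tgfb1 and Irf4 lay lower.

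Of the scavenger receptors, Marco, a class A receptor for bacteria and particles, was listed at 0 in 7 libraries and at 0.04 TPM in LPS + UDCA replicate 2. Stab1, on chromosome 14 from 31139013 to 31168641, encodes a receptor that clears oxidized lipoproteins and dying cells. It had 7.66, 3.37, 2.03 and 4.67 TPM with LPS and 9.52, 5.99, 7.09 and 6.64 TPM with UDCA. LPS replicate 1 lay within the LPS + UDCA range, so the groups overlapped. The log2 fold change was 0.70 (95% interval 0.051 to 1.35, adjusted p = 0.051 from limma), and a difference was not established. Without LPS replicate 1 it was 0.96 (adjusted p = 0.0050), and without LPS replicate 3, the lowest, it was 0.46 (adjusted p = 0.12, both from limma). The gene Nt5dc2 overlaps its exons on the opposite strand, and the use of strand in counting is not given in the sources used here. Cd5l, which encodes a secreted scavenger receptor protein that blocks macrophage apoptosis, had 1.10, 0.73, 0.57 and 0.70 TPM with LPS and 0.59, 0.43, 0.81 and 0.42 TPM with UDCA. Its groups overlapped (exact permutation test, p = 0.20).

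Among 22 other scavenger receptor genes, 10 were tested, with 2 downregulated and 0 upregulated past both thresholds, where 17.1% of all genes tested were called in either direction. At an unadjusted p under 0.05 from limma 6 were lower and 3 higher, and likewise at an FDR under 0.05, which 72.5% of all genes tested passed. Their median log2 fold change was -0.50. Lrp1, a large endocytic receptor, fell from 167 ± 13.4 to 51.98 ± 8.15 TPM (log2 fold change -1.67, adjusted p = 1.1e-06 from limma). Cd68, the gene of macrosialin, fell from 541 ± 4.48 to 206 ± 2.41 TPM (log2 fold change -1.39, adjusted p = 7.4e-10 from limma).

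A list of 52 other C-type lectin genes shared Clec4a1, Clec4a2, Clec4a3 and others with the clusters above. Of its genes, 9 were tested, of which 2 rose and 3 fell past both thresholds, where 17.1% of all genes tested were called in either direction. Outside the Dectin-2 cluster, 1 of these calls was higher (Cd209c) and 1 was lower (Cd302). Cd302, which encodes an endocytic lectin of myeloid cells, fell most, from between 9.94 and 10.5 TPM to between 1.88 and 2.52 TPM (log2 fold change -1.81, SE 0.089, adjusted p = 1.8e-07 from limma). Cd209c, a gene of the DC-SIGN family, rose from between 0.66 and 1.59 TPM to between 4.73 and 7.70 TPM (log2 fold change 1.80, SE 0.19, adjusted p = 2.3e-05 from limma). Of its 31-base words, 24.7% also occur in another gene, most often in Olfr1372-ps1. Of the 43 genes not tested, 25 were listed at 0 in all 8 libraries.

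The adaptors and kinases that the receptors share were well expressed. Fcer1g was 435 ± 9.65 TPM with LPS and 408 ± 25.5 TPM with UDCA, and did not pass the test (log2 fold change -0.095, 95% interval -0.20 to 0.0075, adjusted p = 0.086 from limma), and its sign turned to 0.027 with quantile normalization. It passed the FDR with median-of-ratios scaling (-0.20, adjusted p = 0.0059) and without LPS + UDCA replicate 2 (-0.13, adjusted p = 0.025, both from limma). Tyrobp, the partner of Clec5a, fell from 627.5 ± 28.5 to 469 ± 26.4 TPM (log2 fold change -0.42, adjusted p = 4.3e-05 from limma). Syk fell from 29.2 ± 1.75 to 18.01 ± 1.87 TPM (log2 fold change -0.67, adjusted p = 4.2e-05 from limma). Card9 was 61.1 ± 1.07 and 56.5 ± 5.39 TPM and its groups overlapped (adjusted p = 0.12 from limma), whereas Bcl10 and Malt1 rose at an FDR under 0.05 with log2 fold changes of 0.25 and 0.72. All 27 genes of the signalling list were tested. Past both thresholds, 1 rose and 3 fell, so that 4 of 27 were called, where 17.1% of all genes tested were. At an FDR under 0.05 alone, 11 were higher and 13 lower, where 40.2% and 32.3% of all genes tested were. The median log2 fold change was -0.12. Nfatc2, a calcium-dependent transcription factor, had the lowest log2 fold change (-1.56, from 9.35 ± 0.351 to 2.52 ± 0.207 TPM). Inpp5d, the gene of the inhibitory phosphatase SHIP1, and Ikbke, a kinase gene, had -1.08 and -1.05. Inpp5d missed the fold change minimum without LPS + UDCA replicate 2 (-0.996), and Ikbke without LPS replicate 4 (-0.998) or without LPS + UDCA replicate 1 (-0.96). The kinase gene Src had the highest (1.10, from 6.38 ± 0.534 to 14.8 ± 0.614 TPM).

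**Figure D5:**
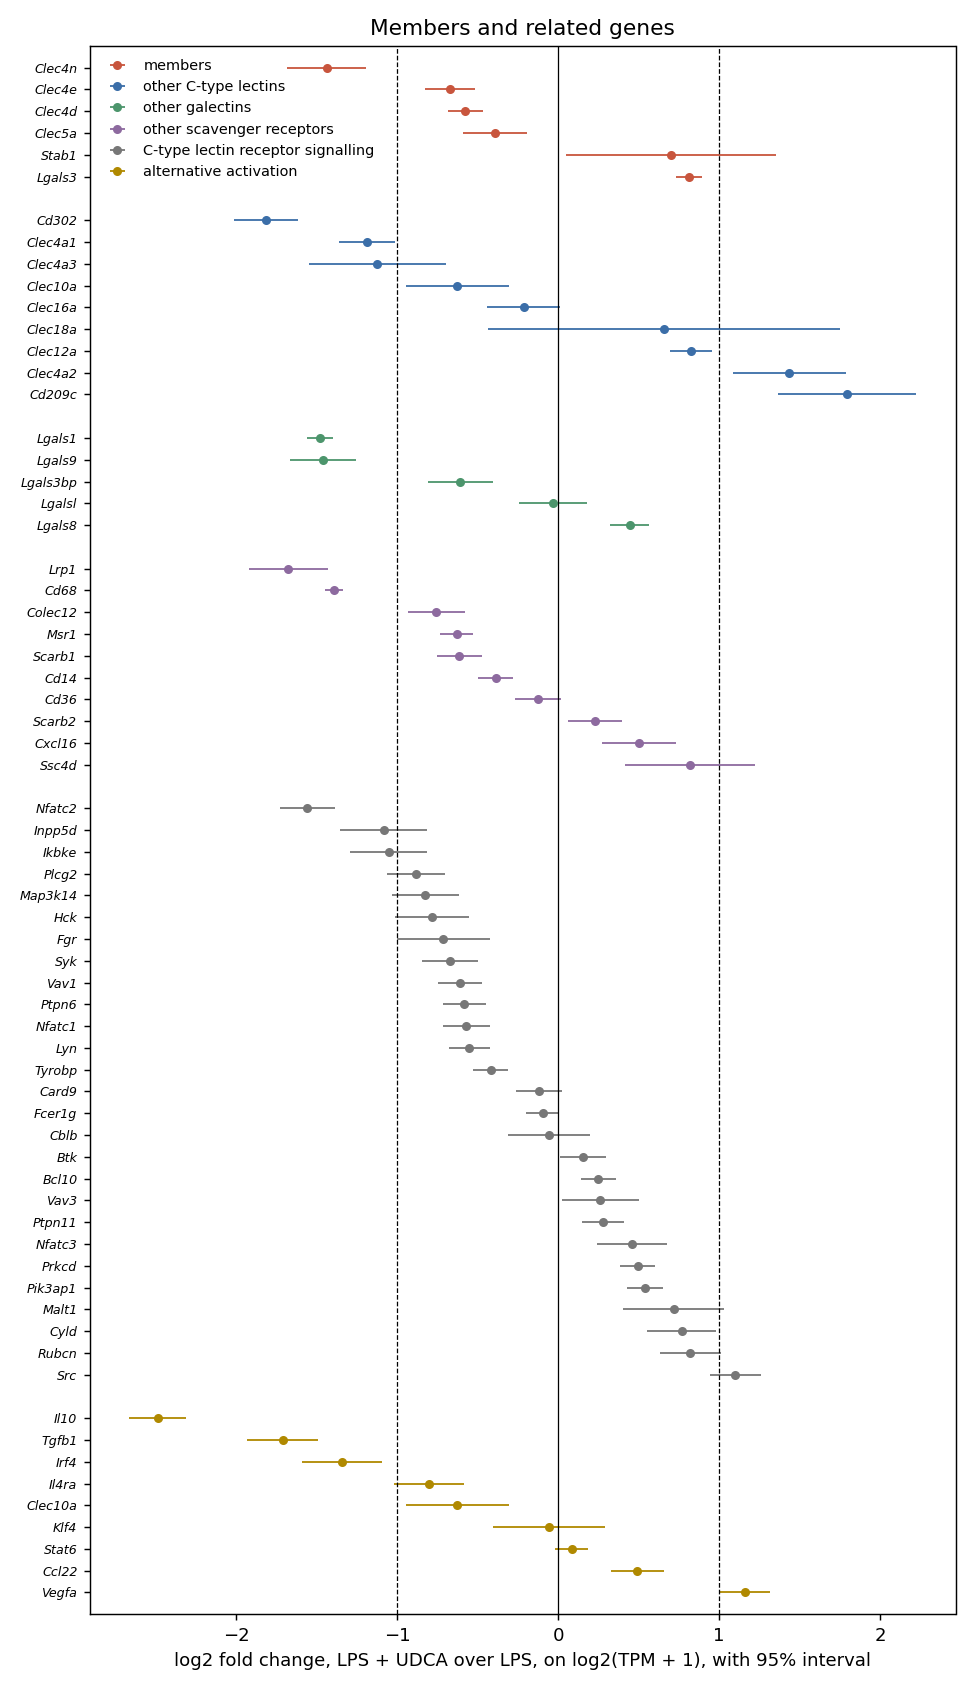
The log2 fold change of LPS + UDCA over LPS on log2(TPM + 1), with its 95% interval from limma, is shown for each tested gene (n = 4 libraries per group), grouped by list ("members" being the 6 tested of the 10 genes, and Clec10a standing in 2 lists) and sorted within it, and dashed lines mark a fold change of 2 in either direction. Clec4n lies beyond the lower line, Lgals3 lies short of the upper one, and the signalling genes are spread on both sides of 0.

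The cells carried macrophage genes, which themselves changed with UDCA. Of 11 macrophage markers, 10 passed the filter and Mertk was listed at 0 in every library. Past both thresholds, 2 of the 10 rose (Adgre1 and Fcgr1), where 8.71% of all genes tested did. Another 4 fell (Cd68, Csf1r, Itgam and Lyz2), where 8.44% did. Their summed level was between 4241 and 4475 TPM with LPS and between 2082 and 2339 TPM with UDCA. Of 6 neutrophil markers, 3, Ly6g among them, were listed at 0 throughout, but S100a8 and S100a9 fell, and the summed level was between 18.6 and 25.4 TPM with LPS and between 2.72 and 9.03 TPM with UDCA. Of 4 B cell markers, Cd79b alone passed the filter and fell, and the summed level was between 3.10 and 4.49 TPM and between 0.35 and 1.60 TPM. Markers of T cells (5 genes), NK cells (3), dendritic cells (4), fibroblasts (4), epithelium (4) and endothelium (4) summed to at most 0.060, 0, 1.68, 0.12, 0.12 and 1.00 TPM in any library. The part of the changes in macrophage, S100a8, S100a9 and Cd79b levels in the results above was not tested.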

How the data were processed

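RNA from J774A.1 cells was extracted with Trizol, prepared with an Illumina TruSeq kit and sequenced on an Illumina HiSeq. The authors deposited TPM per gene, with 2 decimals and 1 column per library. The submitters' processing notes name Bowtie 0.12.2 and the builds mm10 and GRCm38, and the counting program is not given in the sources used here. TPM keeps no read number, so no counting error was computed.

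Libraries were grouped by their titles. The 11796 genes whose mean reached 1 TPM were fitted on log2(TPM + 1) (R 4.3.3, limma 3.58.1, eBayes with trend), with Benjamini-Hochberg adjustment over them. Single values were compared by a 2-sided exact permutation test over 70 arrangements of the 8 libraries. The thresholds are those of the study's methods, which name no test for sequencing. Here the 2-fold minimum was applied to log2(TPM + 1), which understates changes of low genes. The study reported more genes in each direction than the 1028 higher and 995 lower called here. The procedure was tested on simulated data.

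The 10 genes and the lists were chosen with earlier results of these data known. Named were the 10 genes, the genes of both chromosome 6 clusters, Fcer1g, Tyrobp, Syk, Card9, Bcl10 and Malt1, and up to 3 highest and 3 lowest called genes of each other list. One gene of the signalling list is not reported here. Other genes named were picked with their values in view. Gene positions and exon overlaps were read from GENCODE M21 (GRCm38), and promoters from RefSeq on GRCm38.p6. Alternatives were another pseudocount, no filter, 3 other scalings, a replicate block, no fold change minimum and each library left out. Rescaling every library to the same TPM total was chosen after seeing the data. Figures were drawn with matplotlib 3.10.9 in Python 3.11.15.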

Additional observations from a re-analysis of the deposited data

Results flagged for a closer look

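A library was singled out where it stood apart from the other 3 of its group by more than Dixon's 95% critical ratio of gap to range. This held in 4 of the 62 sets of 4 values examined, and about 3.1 would be so by chance. For Fcer1g, LPS replicate 2 was highest (449.84 TPM, ratio 0.867). For Tyrobp, LPS replicate 1 was lowest (585 TPM, ratio 0.892), and for Malt1 the same library was highest (8.75 TPM, ratio 0.957). For Cd302, LPS replicate 4 was lowest (9.94 TPM, ratio 0.893). None of the 10 genes was among them.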

How the results depend on the processing

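Among the 10 genes, Clec4n alone was called in every alternative that kept the fold change minimum. Without that minimum, 1 of the 6 tested was called higher and 4 lower. Of the other lists, 7 of 9 C-type lectin genes, 4 of 5 Lgals genes and 9 of 10 scavenger receptor genes were called. So were 24 of 27 signalling genes and 7 of 9 alternative activation genes. Over all genes, 4741 were called higher and 3807 lower, together 72.5% of those tested. Leaving out 1 library at a time gave between 3 and 4 called signalling genes. With quantile normalization the log2 fold change of Fcer1g was 0.027. Median-of-ratios scaling moved the median of all genes from 0.082 to -0.018 on the log2 scale and gave 807 genes higher and 1168 lower, against 1028 and 995. Over the 15 alternatives the log2 fold change of Clec4n ranged from -1.70 to -1.38 and that of Lgals3 from 0.70 to 0.90, and Stab1 had an FDR under 0.05 in 3 of them.

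The groups share replicate numbers, which the labels do not tie to a batch. Deviations of same-numbered libraries correlated by -0.035 to 0.15 (mean 0.088). Those of different-numbered libraries correlated by -0.14 to 0.16 (mean -0.029), so the ranges overlapped. Of the 8 libraries, 5 correlated best with their own number. In a fit with that number as block, 0 of the 10 genes were called higher and 1 lower from limma, as without it (1034 and 1000 over all genes), and Stab1 had an adjusted p of 0.017.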

Other observations

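Of 140 genes in the lists, 74 were under the mean of 1 TPM and were not tested, and 7 of these did not overlap between the groups. The share of all untested genes without overlap was not computed, so this count has no background to be read against. Ager and Cd209g lay lower with UDCA, and Arg1, Clec11a, Lgals2, Selp and Tgm2 lay higher. The 3 described below, all higher, were chosen after their values were seen. Arg1, the gene of arginase 1, had 0.12, 0.36, 0.14 and 1.15 TPM with UDCA, against a listed 0 in each of the 4 LPS libraries. Tgm2, which encodes a transglutaminase found on alternatively activated macrophages, had 0.24, 0.14, 0.14 and 0.04 TPM with LPS and 1.39, 1.37, 1.35 and 1.29 TPM with UDCA. Clec11a, the gene of a secreted C-type lectin that acts as a growth factor, had 0.48, 0.73, 0.47 and 0.39 TPM with LPS and 1.23, 1.53, 1.41 and 1.70 TPM with UDCA. In the limma fit without the filter, the log2 fold changes were 0.48 for Arg1 (adjusted p = 0.090), 1.05 for Tgm2 (adjusted p = 8.5e-06) and 0.70 for Clec11a (adjusted p = 6.8e-04).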
